A study of Rattus norvegicus with 8 samples.

Results

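The late-numbered miRNAs are the rows of a striatal miRNA count table whose number is 1000 or more, leaving out miR-1188 and miR-1193, whatever their letter or arm. The rule took 134 of the 752 rows by name alone, with no measured value, and left 618 other rows. The 134 rows came from 98 numbers, the lowest being 1199 and the highest 7578. miRNA numbers are given in order of description, so a late number says when a miRNA was named. The age of a miRNA in evolution was not measured in these data, and the rows are called late-numbered here for that reason.

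Small RNA libraries came from the striatum of 8 wild-type male Sprague-Dawley rats, with 4 rats that self-administered saline (saline group) and 4 rats that self-administered methamphetamine (METH group). In self-administration a rat presses a lever to receive an infusion through a catheter in the jugular vein. Both groups had the same food training, catheter surgery and anaesthesia before tissue collection, and rats with stable lever pressing were selected. Each rat gave 1 library, the rats are numbered 1 to 4 within a group only to name them, and the age of the rats was not given in the sources used here.

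A miRNA is a short RNA that is cut from a hairpin precursor and guides the Argonaute proteins to messenger RNAs. Pairing rests mainly on the seed, bases 2 to 8 of the mature strand, and each hairpin has a 5p and a 3p arm from which a mature strand can come. Conserved miRNAs were mostly found first and carry low numbers, and deep sequencing later added many that are rare or restricted to few species. Some of the later entries lie in introns, some are cut out by the splicing machinery without the Drosha enzyme (mirtrons), some overlap small nucleolar RNAs (snoRNAs, which guide the modification of other RNAs, with scaRNAs as their Cajal body counterparts), and some are read from the strand opposite a known hairpin.

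Mature sequences from RefSeq (assembly GRCr8) were matched by name to 119 of the 134 rows, and to 46 of the 51 that could be tested. They were 18 to 25 bases long with a median of 22, so levels were compared between rows without scaling for length. The sequences below are written 5′ to 3′ with the seed in capitals, and chromosomes are those of GRCr8. The first set is shown because it holds the 3 most abundant members, the miR-1843 pair and both members whose METH rats were all above the saline rats.
miR-3068-5p (chromosome 6, symbol Snora58): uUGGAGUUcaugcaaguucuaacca
miR-1839-5p (chromosome 1, symbol Scarna15): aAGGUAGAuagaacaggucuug
miR-1843a-5p (chromosome 6, symbol Scarna3): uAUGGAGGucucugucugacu
miR-1843b-5p (chromosome 13): aUGGAGGUcucugucugacuuag
miR-1843a-3p (chromosome 6, symbol Scarna3): uCUGAUCGuucaccuccauaca
miR-1843b-3p (chromosome 13): uCUGAUCGuuccccuccauac
miR-6331 (chromosome 6): cUUUGGUGgcuuaguucuuugugc

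The 3p strands of miR-1843a and miR-1843b had the same seed, CUGAUCG, and over the bases they share they differed by A12C, counted from 1 at the 5′ end with the base of miR-1843a first. The 5p strands shared 20 bases but were offset by 1 base, which gave them different seeds. Reads of this pair could have been split between its members by the counting. The second set holds the members whose METH rats were all below the saline rats, with miR-3547 and miR-1949, which had the largest differences in each direction.
miR-3550 (chromosome 19): cCGAGCCCaucccugcccuag
miR-3572 (chromosome 1): uUACACUUgcccuuuuuuccccag
miR-3552 (chromosome X): aGGCUGCAggcccacuucccu
miR-3102 (chromosome 1): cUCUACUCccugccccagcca
miR-3547 (chromosome 10): uGAGCACCaccccucucucagau
miR-1949 (chromosome 18): uAUACCAGgaugucagcauaguu

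Few late-numbered miRNAs shared a seed with the rest of the table. Of the 119 matched sequences, 3 had the seed of a row numbered under 1000, and 1 of those was tested, miR-3065-5p, whose seed is that of miR-7a-1-3p. The GC content of the tested members had a median of 50%, against 47.8% for the other tested rows. Bases CAG or UAG at the 3′ end, the letters at the end of an intron, were present in 6 of 46 matched tested members (13.0%) and in 18 of 426 other matched tested rows (4.23%). These 6 members were miR-3572, miR-1839-3p, miR-1843b-5p, miR-3542, miR-3550 and miR-3583-3p, and a match describes the letters only.

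Late-numbered rows were often empty. No library gave a count for 42 of the 134 members (31.3%), whereas 48 of the 618 other rows (7.77%) had no count. A count in all 8 libraries was seen for 59 members (44.0%) and for 495 other rows (80.1%). At least 1 count was seen for 92 members (68.7%). In a single library, 3 counts correspond to between 0.109 CPM (counts scaled to a common library total) in the deepest and 0.232 CPM in the shallowest library, so an RNA below that level could have been missed, counting error only.

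Detection differed among number ranges. Of 22 rows with numbers in the 1000s, 4 had no count and 15 were present in all 8 libraries. Of 85 rows with numbers in the 3000s, 29 had no count and 31 were present in all 8. These 85 rows hold all 33 rows that lie opposite a lower-numbered miRNA (described below), of which 21 had no count. Of 26 rows numbered 5000 and above, 9 had no count and 12 were present in all 8. The single row with a number in the 2000s, miR-2985, lies in the span of Gria2, a glutamate receptor subunit gene, and was present in all 8 libraries at a mean of 1.00 CPM.

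**Figure D1:**
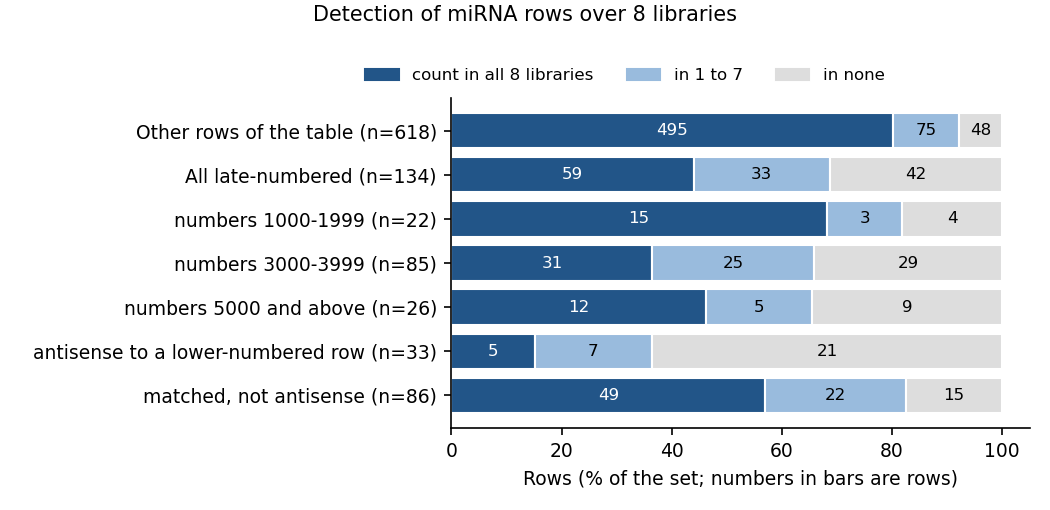
Share of rows (x axis, percent of each set) with a count in all 8 libraries, in 1 to 7, or in none, for the other rows of the table, the late-numbered rows and subsets of these, with row numbers printed in the bars. Of the rows antisense to a lower-numbered row 21 of 33 had no count, against 15 of 86 matched rows that were not antisense.

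Rows that lie opposite a lower-numbered miRNA were the emptiest class. In RefSeq, 33 members lay on the opposite strand within 100 bases of a row numbered under 1000, and 32 of them were its reverse complement over at least 16 bases, 19 over their whole length. No count was found for 21 of these 33 (63.6%). Among the 86 matched members with no such partner, 15 had no count (17.4%). Which strand the counting used was not given in the sources used here, so these counts hold with that limit. The following pairs show the relation.
miR-3596a (chromosome 8): aACUAUACaaccuacuaccuca
let-7a-5p: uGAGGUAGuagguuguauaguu
miR-3065-5p (chromosome 10): uCAACAAAaucacugaugcu
miR-338-3p: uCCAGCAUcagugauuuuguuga

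The 33 antisense members held 1452 counts in all, and their 33 partners held 19898167. The partner had more counts in 33 of 33 pairs. For miR-3120, which lacked the complement, the opposite-strand row with more counts was taken as the partner. miR-3596a had 2 counts over 8 libraries, and let-7a-5p, one of the most abundant brain miRNAs and its reverse complement over 22 bases, had 6009509. miR-3596b and miR-3596c had 2 and 3 counts against 1303093 for let-7d-5p and 859667 for let-7e-5p, and miR-3596d had none. miR-3556a and miR-3556b, antisense to miR-29a-3p and miR-29c-3p, had none either. miR-3553, antisense to miR-183-5p, had no count in any rat.

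A few antisense rows were counted in every rat. miR-3544, opposite miR-337-5p, had 551 counts, miR-3065-3p had 393, miR-3065-5p had 320 and miR-3074, opposite miR-24-1-5p, had 90, and these 4 could be tested. miR-3065 and miR-338 are read from opposite strands at the gene Aatk, a neuronal kinase gene whose intron carries miR-338. miR-338-3p had 338 times the counts of miR-3065-5p, and miR-338-5p had 186 times those of miR-3065-3p. miR-3120, opposite miR-214-3p in the gene Dnm3, had 24 counts in 6 libraries and was not tested. miR-3588, opposite miR-125b-5p, had 3, 1, 5 and 35 counts in saline rats 1 to 4 and 0, 0, 1 and 4 in METH rats 1 to 4. Most of its 49 counts therefore came from saline rat 4.

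**Figure D2:**
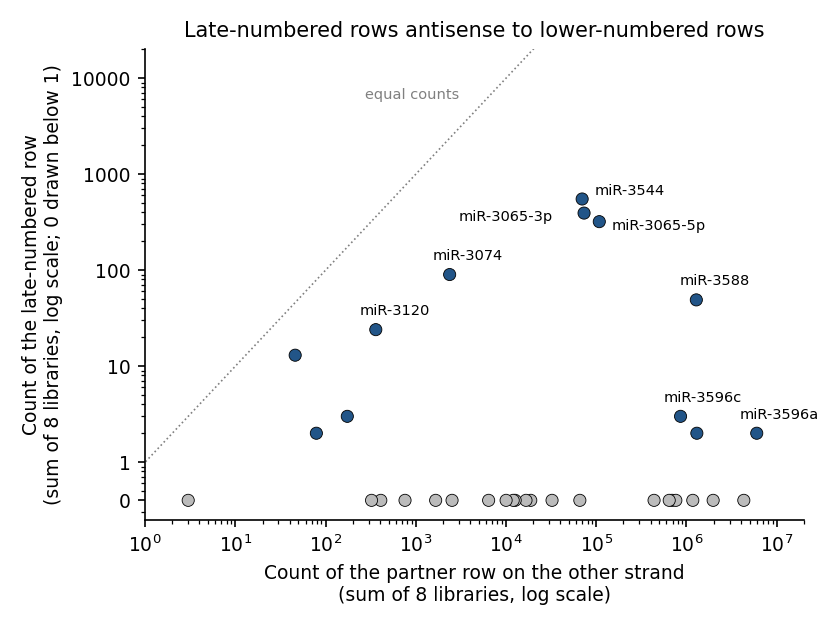
Counts summed over 8 libraries for the 33 late-numbered rows antisense to a lower-numbered row (y axis, log scale, rows with no count drawn at 0) against the counts of the partner (x axis, log scale). Each point lies below the dotted line of equal counts, and the 21 grey points had no count.

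Late-numbered miRNAs were 0.209% of all counts. The total miRNA count per library ranged from 12929302 in METH rat 1 to 27632443 in saline rat 3. The members' share was 0.173%, 0.245%, 0.165% and 0.209% in saline rats 1 to 4, and 0.243%, 0.256%, 0.206% and 0.209% in METH rats 1 to 4. The group means were 0.198% ± 0.0364 (SD, n = 4) and 0.229% ± 0.0249 (SD, n = 4), and the groups overlapped. The difference of 0.0307 percentage points was smaller than the SD in the saline group and larger than the SD in the METH group. Without miR-3068-5p it was 0.0145 percentage points. It was 0.0198 without saline rat 3 and 0.0463 without saline rat 2.

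The number of members with a count was 68, 71, 77 and 74 in saline rats 1 to 4 and 68, 68, 73 and 70 in METH rats 1 to 4. The means were 72.5 ± 3.87 (SD, n = 4) and 69.8 ± 2.36 (SD, n = 4). The difference, METH minus saline, was -2.75 rows, and -1.08 rows with each library thinned to the smallest total. Leaving out 1 rat moved it from -4.25 (without saline rat 1) to -1.25 (without saline rat 3). The smallest library was in the METH group, so detection and depth are partly joined in the unthinned values.

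The counts were concentrated in few members. miR-3068-5p was the most abundant member in each of the 8 libraries and held 21.9% to 33.3% of the members' counts. The 10 most abundant held 82.8% to 90.4%. Among the 51 members with at least 10 counts in at least 4 libraries, mean levels ran from 0.443 CPM (miR-1912-3p) to 615 CPM (miR-3068-5p), where CPM from here on also uses the TMM scaling factors of edgeR. The median was 4.55 CPM, against 51.5 CPM for the 463 other tested rows. miR-6321 and miR-3585-3p passed this limit with 4 libraries, and miR-3075, with 3, did not.

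miR-3068-5p lies in the span of Alkbh1, a nucleic acid demethylase gene, on its strand. Its level was 361, 587, 477 and 642 CPM in saline rats 1 to 4 and 757, 773, 595 and 726 CPM in METH rats 1 to 4. METH rats were on the whole higher, and METH rat 3 lay below saline rat 4. The saline rats averaged 517 ± 124 CPM (SD, n = 4). The METH rats averaged 713 ± 80.8 CPM (SD, n = 4). This gave a log2 fold change (METH over saline) of 0.46 ± 0.23 (SE) and an adjusted p of 0.850 in edgeR's quasi-likelihood test (unadjusted p = 0.071).

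miR-6331, in a long noncoding RNA gene, was second. It read 312, 242, 264 and 248 CPM in saline rats 1 to 4 and 221, 297, 200 and 584 CPM in METH rats 1 to 4. METH rat 4 was high and the other METH rats were within or below the saline range. The log2 fold change was 0.29 with METH rat 4 and -0.13 without it. Next in level were miR-1839-5p (267 CPM over all rats), miR-1843a-5p (160), miR-1298 (135), miR-3099 (117), miR-1843a-3p (87.6), miR-1843b-5p (65.9), miR-1249 (53.9) and miR-3085 (42.7). Neighbours in this order overlapped between rats, and the group SD of miR-1843a-5p in saline rats, 61.2 CPM, exceeded its distance to the next member.

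**Figure D3:**
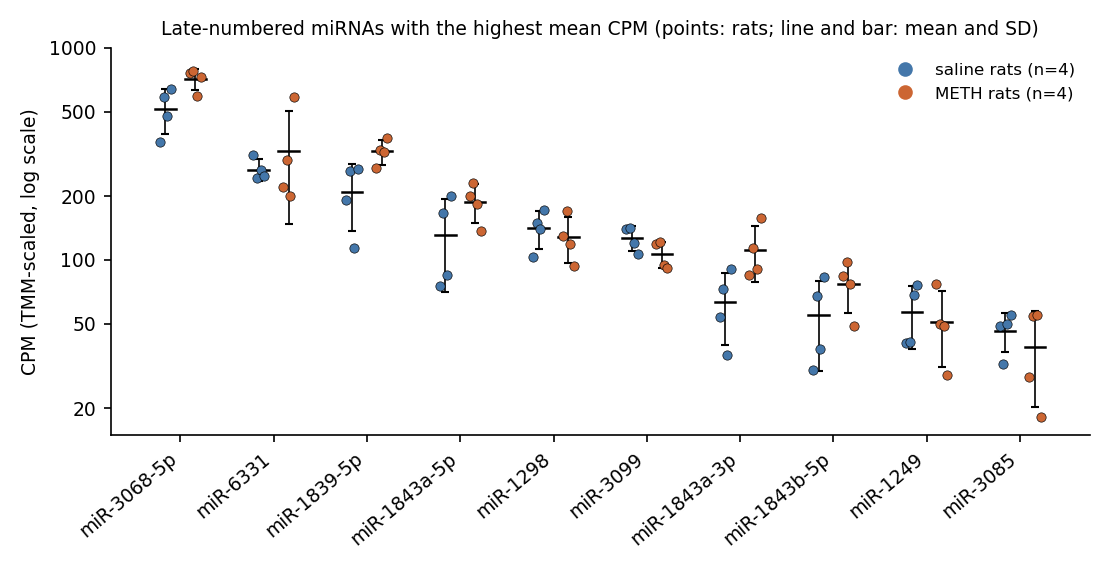
Level of the 10 late-numbered miRNAs with the highest mean (y axis, TMM-scaled CPM, log scale) in each saline and METH rat, with the mean and SD of each group. miR-3068-5p ranged from 361 to 773 CPM, and METH rat 4 stands out for miR-6331 at 584 CPM.

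Whether METH self-administration changed these miRNAs was examined for the 51 testable members in a fit of all 514 testable rows. No member passed an adjusted p of 0.05 in edgeR's quasi-likelihood test with Benjamini-Hochberg adjustment, and 0 of 514 rows did (0%). DESeq2, the exact test of edgeR and limma voom also called 0 members, while they called 8, 6 and 1 of all rows. At an unadjusted p under 0.05, 3 of 51 members (5.88%) were higher in the METH group, against 2.53% of all tested rows, and 3 (5.88%) were lower, against 2.53%. A difference of at least 1.5-fold was seen upward in 7 members (13.7%, background 7%) and downward in 4 (7.84%, background 8.95%). Each of these shares rests on 3 to 7 members.

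The members' median log2 fold change was -0.09 (range -1.24 to 1.83), with 21 values above 0 and 30 below, and the median over all tested rows was -0.06. The sign of the members' median was not stable, being 0.0030 with RLE size factors, 0.021 with upper quartile factors and 0.0061 in DESeq2. It was 0.0093 without saline rat 4 and -0.017 without saline rat 2. The median SE of a member's log2 fold change was 0.35, against 0.34 for the other rows.

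**Figure D4:**
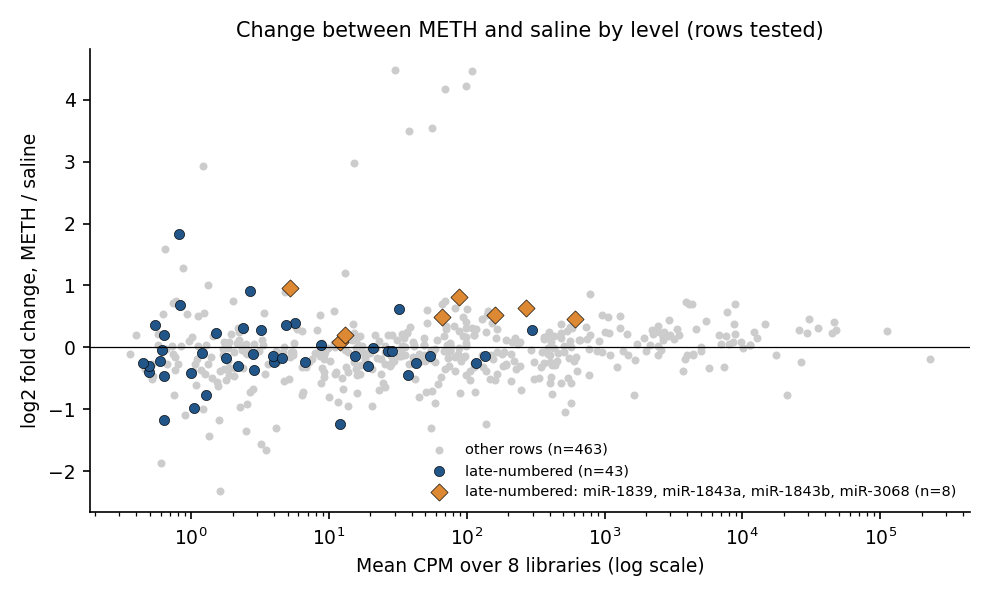
Log2 fold change between the METH and saline groups (y axis) against the mean CPM over 8 libraries (x axis, log scale) for 514 tested rows, with late-numbered rows in blue and the miR-1839, miR-1843a, miR-1843b and miR-3068 rows as orange diamonds. The 8 diamonds lie above 0, and late-numbered rows reach from -1.24 to 1.83.

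All 4 METH rats were above all 4 saline rats for 2 members (3.92%, background 1.75%), miR-1843b-3p and miR-1839-5p. All 4 METH rats were below for 4 members (7.84%, background 1.95%), miR-3550, miR-3572, miR-3552 and miR-3102. These 6 were picked for the lack of overlap, which by itself fixes the result of a permutation of the rats, so no such test is given for them.

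miR-1843b-3p lies in Cop1, a ubiquitin ligase gene. It read 3.35, 4.16, 2.18 and 4.46 CPM in saline rats 1 to 4 and 6.01, 5.20, 6.36 and 10.1 CPM in METH rats 1 to 4. METH rat 4 was the highest and the groups did not overlap. Between groups this was a log2 fold change of 0.97 ± 0.33 (SE) at an unadjusted p of 0.015 and an adjusted p of 0.528 in edgeR's quasi-likelihood test. It was 0.75 without METH rat 4.

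miR-1843a-3p, which has the same seed, lies in Dcaf5, a gene for a ubiquitin ligase adaptor. It read 54.0, 72.9, 35.8 and 90.8 CPM in saline rats 1 to 4 and 85.2, 113, 90.5 and 158 CPM in METH rats 1 to 4. Only saline rat 4 reached into the METH range. Its log2 fold change was 0.82 ± 0.33 (SE, unadjusted p = 0.034, adjusted p = 0.834 in edgeR's quasi-likelihood test), and 0.64 without METH rat 4.

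miR-1839-5p, which RefSeq places at Scarna15, read 192, 261, 114 and 270 CPM in saline rats 1 to 4 and 270, 331, 323 and 376 CPM in METH rats 1 to 4. The groups met, with METH rat 1 at 270.2 and saline rat 4 at 269.6 CPM. The log2 fold change was 0.64 ± 0.29 (SE, unadjusted p = 0.052, adjusted p = 0.850 in edgeR's quasi-likelihood test), and 0.43 without saline rat 3, the lowest rat. Its other strand, miR-1839-3p, had 0.08, and the sign of that value turned when saline rat 1 or METH rat 1 was left out.

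The members at snoRNA or scaRNA genes had values on the same side. RefSeq gives 7 rows such a symbol, the arms of miR-1839 (Scarna15), miR-1843a (Scarna3) and miR-3068 (Snora58), and miR-3084d (Snora19), which had no count. The 6 tested rows with such a symbol had log2 fold changes from 0.08 to 0.82. Only miR-1843a-3p among them had an unadjusted p under 0.05 in edgeR's quasi-likelihood test. With both arms of miR-1843b added for its sequence, the 9 rows included 8 tested ones. All 8 had a log2 fold change above 0 (median 0.50), and 2 had an unadjusted p under 0.05 in that test. Of the 43 other tested members 13 were above 0 (median -0.14). This grouping was made after the values were seen, no test was run on it, and arms of a hairpin and the miR-1843 pair share their source or sequence.

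Summed over the 9 rows, the level was 729, 1185, 772 and 1325 CPM in saline rats 1 to 4 and 1439, 1582, 1298.4 and 1472 CPM in METH rats 1 to 4. Saline rats 1 and 3 were low, and saline rat 4 lay above METH rat 3. The largest part of the sum was miR-3068-5p, whose groups overlapped. It held 104553 counts over all rats, with miR-1839-5p next at 45414. These rows made up 44.3% to 59.5% of the members' counts in saline rats and 57.4% to 63.3% in METH rats. The remaining members summed to between 903 and 918 CPM in saline rats and between 769 and 1091 CPM in METH rats. The value of 1091 CPM was that of METH rat 4, the rat that was high for miR-6331.

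Of the 4 members with all METH rats below, 3 had low counts. The first, miR-3550, lies in Mast1, a gene for a microtubule-associated kinase. It read 1.59, 1.78, 1.179 and 1.06 CPM in saline rats 1 to 4 and 0.796, 0.550, 0.969 and 0.507 CPM in METH rats 1 to 4, from 9 to 42 counts per library. Each METH rat was below each saline rat. This was a log2 fold change of -0.98 ± 0.33 (SE) at an unadjusted p of 0.015 and an adjusted p of 0.528 in edgeR's quasi-likelihood test.

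miR-3572 lies in Cnot3, a gene for a subunit of the CCR4-NOT deadenylase, which shortens mRNA tails. It read 1.95, 1.44, 1.14 and 1.92 CPM in saline rats 1 to 4 and 1.01, 1.10, 1.09 and 0.564 CPM in METH rats 1 to 4. METH rat 4 was the lowest, and the gap between the groups was narrow. On the log2 scale the difference was -0.77 ± 0.33 (SE, unadjusted p = 0.041, adjusted p = 0.850 in edgeR's quasi-likelihood test), and -0.57 without METH rat 4.

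miR-3552 lies in Htr2c, the gene of the serotonin 2C receptor. It had 16, 20, 18 and 31 counts in saline rats 1 to 4 and 7, 11, 11 and 1 counts in METH rats 1 to 4. METH rat 4 was far below the others. The log2 fold change was -1.17 ± 0.50 (SE, unadjusted p = 0.042, adjusted p = 0.850 in edgeR's quasi-likelihood test), and -0.80 without METH rat 4.

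Htr2c carries several miRNAs in its introns, and 7 rows of the table lay in its span on its strand. The members among them were miR-3552, miR-1298 with -0.14 and miR-1912-3p with -0.25, and miR-1912-5p had 5 counts in all and was not tested. Of the lower-numbered rows miR-764-3p had -0.35, miR-448-5p had -0.43 and miR-448-3p had 0.38. miR-1298, the most abundant of the 7, read 104, 150, 139 and 173 CPM in saline rats 1 to 4 and 129, 170, 119 and 93.6 CPM in METH rats 1 to 4. Its groups overlapped, and no row of Htr2c passed the adjusted threshold in edgeR's quasi-likelihood test.

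miR-3102 had 25.6, 19.8, 19.8 and 20.1 CPM in saline rats 1 to 4 and 19.5, 19.2, 17.9 and 12.5 CPM in METH rats 1 to 4. Saline rat 1 and METH rat 4 stood apart from the rest of their groups. The log2 fold change was -0.30 ± 0.25 (SE, unadjusted p = 0.245 in edgeR's quasi-likelihood test), -0.14 without saline rat 1 and -0.16 without METH rat 4.

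The members with the largest differences were variable. miR-1949, in Matr3, a gene for a nuclear RNA-binding protein, had 4, 5, 1 and 24 counts in saline rats 1 to 4 and 11, 19, 36 and 34 counts in METH rats 1 to 4. Saline rat 4, at 0.983 CPM, lay within the METH range of 0.796 to 1.92 CPM. Its log2 fold change was 1.83 ± 0.71 (SE, unadjusted p = 0.027, adjusted p = 0.719 in edgeR's quasi-likelihood test), and it was 3.17 without saline rat 4 and 1.45 without saline rat 3.

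miR-3547, in Baiap3, a gene for a protein of vesicle traffic, read 9.11, 28.0, 21.2 and 8.76 CPM in saline rats 1 to 4 and 16.2, 5.05, 3.06 and 4.34 CPM in METH rats 1 to 4. METH rat 1 lay between the saline rats and the other METH rats lay below all of them. On the log2 scale the difference was -1.24 ± 0.59 (SE, unadjusted p = 0.061, adjusted p = 0.850 in edgeR's quasi-likelihood test), -1.96 without METH rat 1 and -0.86 without saline rat 2.

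miR-6321, in Rufy3, a gene for a neuronal adaptor protein, was either present or nearly absent. It had 78, 2, 102 and 0 counts in saline rats 1 to 4 and 0, 164, 0 and 100 counts in METH rats 1 to 4. Both groups held 2 rats with 78 counts or more and 2 rats with 2 counts or fewer. Its log2 fold change of 0.91 had an SE of 1.53, and it was 0.022 when METH rat 2 was left out and 1.53 when saline rat 3 was. Each of its counts was even, as was also the case for miR-3542 and miR-6319 among the 51 tested members and for 26 of the 463 other tested rows. The handling of reads with several alignments was not given in the sources used here, and halving such rows called no member.

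Other members with a known kind of origin or host showed no change that passed the adjusted threshold in edgeR's quasi-likelihood test. miR-1224, a mirtron of Vwa5b2, read between 35.8 and 60.6 CPM in saline rats and between 21.0 and 37.6 CPM in METH rats, with a log2 fold change of -0.44 ± 0.28 (SE) that became -0.20 without saline rat 2. miR-1306, in Dgcr8, the gene of the partner of Drosha in cutting hairpins, had -0.14 for its 5p and 0.36 for its 3p strand. miR-3064, in Ddx5, a gene for a helicase of that complex, had 0.39 and -0.46. miR-1249 had -0.14, miR-3099 had -0.25 and miR-3085 had -0.25, and all of these groups overlapped. miR-3099 was at -0.14 without saline rat 1, and the values of miR-1249 and miR-3085 changed sign without METH rat 4.

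The antisense members that were tested had small values. miR-3544 had a log2 fold change of 0.28, miR-3065-5p of -0.18, miR-3065-3p of -0.31 and miR-3074 of -0.40, with unadjusted p-values from 0.347 to 0.597 in edgeR's quasi-likelihood test. Single rats moved these values, with miR-3074 at -0.088 without METH rat 1 and -0.73 without METH rat 3, miR-3065-3p at -0.088 without saline rat 2, and miR-3065-5p at 0.11 without saline rat 4. The partners were at 0.01 for miR-337-5p, -0.21 for miR-338-3p, -0.47 for miR-338-5p and -0.31 for miR-24-1-5p. The 6 rows numbered miR-3084 held 6 counts in all, and miR-3084a-3p and miR-3084d have the same sequence.

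**Figure D5:**
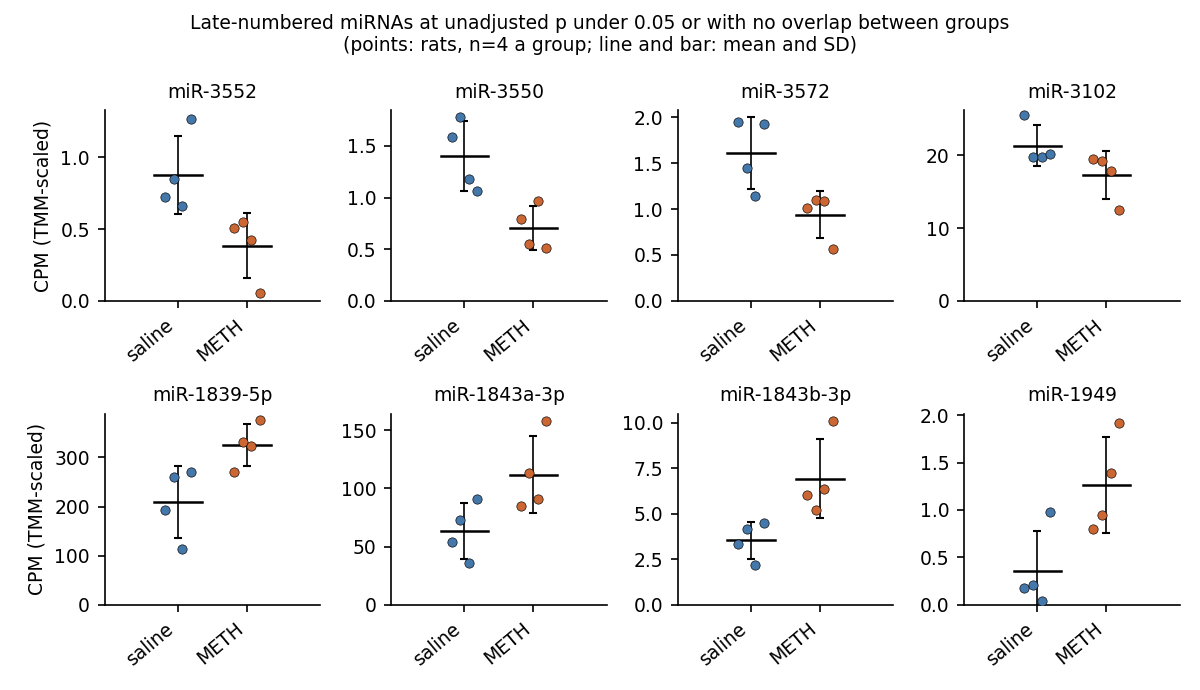
Level (y axis, TMM-scaled CPM from 0) of the 8 late-numbered miRNAs with an unadjusted p under 0.05 or with groups that do not overlap, in each saline and METH rat, with mean and SD. miR-1949 and miR-1843a-3p overlap between groups at saline rat 4, and METH rat 4 is the lowest rat for miR-3552, miR-3550, miR-3572 and miR-3102.

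The rat that stood apart for the members was METH rat 4. It was the highest rat for 10 and the lowest for 19 of the 51 tested members, whereas the other rats were outermost for 6 to 14. Among the 463 other rows METH rat 4 was outermost for 308 (66.5%). The ratio of 5p to 3p counts placed it outermost for 7 of 11 hairpins with both arms tested. For miR-1306 the ratio was 0.182 in METH rat 4 and 0.685 to 1.52 in the other rats, for miR-3068 it was 115 against 38.3 to 50.5, and for miR-1843a it was 0.870 against 1.39 to 2.38. miR-1843b showed the same, at 4.84 against 8.99 to 18.8.

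Marker miRNAs of cell types were read from the same table. The 5 neuronal markers, miR-124-3p among them, summed to 275818 to 506460 CPM in saline rats and 312219 to 449167 CPM in METH rats. This sum was high in each rat, and it can rest on the most abundant marker. Of the 5 neuronal markers, 1 had a higher value in the METH group. All 8 epithelial markers (the miR-200 family and the miR-183 cluster) had higher values in the METH group, with sums of 26.4 to 63.4 CPM against 110 to 2257 CPM. METH rat 4 had 2645 CPM of 3 erythrocyte markers, against 340 to 622 in the other METH rats and 407 to 637 in saline rats. It had 6671 CPM of 3 choroid plexus markers, against 2740 to 2994 in the other METH rats and 2716 to 3585 in saline rats. The sums of all lists except the epithelial one overlapped between the groups. No list had a member that passed the adjusted threshold in edgeR's quasi-likelihood test. No marker of any list in the table was at 0 in all rats. The part of these cells in the members' values was not tested. In bulk tissue, fewer cells of a type and less RNA per cell cannot be told apart.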

How the data were processed

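Rat striatal small RNA libraries were made by the authors with a BGISEQ-500 kit that carries unique molecular identifiers. The authors trimmed reads with cutadapt 1.18, aligned them to rn6 with STAR 2.7.0e and deposited raw read counts per mature miRNA from featureCounts (Subread 1.6.4). Merging of reads by identifier, the annotation release and the treatment of reads with several alignments are not given in the sources used here. Without merging, PCR copies are counted more than once.

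Rows with at least 10 counts in at least 4 libraries (514 of 752) were fitted in edgeR 4.0.16 (R 4.3.3, trimmed mean of M-values or TMM factors, glmQLFit and glmQLFTest, group as the only term, two-sided), and p-values were adjusted by Benjamini-Hochberg over all 514, with a threshold of 0.05. Each SE was derived from the fold change and its F statistic. CPM used TMM-scaled totals, and log2 CPM a prior count of 2. Named members were the 10 with the highest mean, those with an unadjusted p under 0.05 or no overlap, the 3 largest changes each way, and lists of Htr2c, splicing or snoRNA, partner and lettered miRNAs. miR-1306, miR-2985, miR-3064, miR-3542, miR-3544, miR-3553, miR-3588, miR-6319 and the host genes were added after their values were seen. The members and lists were chosen with earlier results of these data known. In simulated counts, 43 of 98 changes of 2-fold and 97 of 98 of 4-fold were recovered, with 8 false calls. These changes were spread over all 509 rows tested there, not over members alone. The median level was 40.9 CPM for all tested rows of the data and 4.55 CPM for the members. So many changed rows also loosen the adjusted threshold, so these rates do not measure recovery for the members. Alternatives used other scalings, filters, DESeq2 1.42.0, the exact test, limma 3.58.1 voom, a replicate block and leaving out each rat. RefSeq GRCr8 was used for sequences and gene spans only, since reads were aligned to rn6.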

Additional observations from a re-analysis of the deposited data

Results flagged for a closer look

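Log2 CPM of each named and tested member, the members' share of counts and the number of members detected were examined in each group of 4 rats, which made 52 sets of values. In 4 of them 1 rat lay far from the other 3 of its group, with a gap to the nearest above the 95% critical value of Dixon for 4 samples, and chance alone gives about 1 in 20, or 2.6 of 52. For miR-1224, saline rat 2 had a log2 CPM of 5.92, against 5.17 to 5.28 in the other saline rats. For miR-3102, saline rat 1 had 4.68, against 4.31 to 4.34. For miR-3552, METH rat 4 had -2.76, from a single count, against -0.95 to -0.64 in the other METH rats. For miR-3572, METH rat 4 had -0.61, against 0.14 to 0.25. The part of these rats in each difference is given by the values without them in the report. What sets them apart was not tested.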

How the results depend on the processing

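No late-numbered miRNA passed the adjusted threshold in any setting run. The 6 members at an unadjusted p under 0.05 became 11 with limma voom and 2 to 8 when 1 rat was left out (2 without saline rat 1, 3 without METH rat 3). Over all rows the 0 calls became 3 with upper quartile factors, 8 in DESeq2, 6 in the exact test, 1 with limma voom and 0 to 4 when 1 rat was left out (4 without METH rat 1). Upper quartile factors moved the median of all rows from -0.06 to 0.08. Signs turned for miR-1298 (0.0037, upper quartile factors) and, with limma voom, for miR-1839-3p (-0.085), miR-1912-3p (0.089) and miR-3085 (0.051). With 1 rat left out, miR-1839-3p ran from -0.21 to 0.48, miR-1249 from -0.34 to 0.069, miR-3065-5p from -0.30 to 0.11, miR-1298 from -0.31 to 0.012, miR-1912-3p from -0.44 to -0.00080, miR-3099 from -0.32 to -0.14, miR-3085 from -0.47 to 0.020 and miR-6331 from -0.13 to 0.52. The cause was not tested. The other 254 values of named members under other settings and 184 with 1 rat left out kept direction and side of the threshold. Rat numbers give only an order. With the replicate block 0 members passed, 4 had an unadjusted p under 0.05 and the members' median was -0.11, and deviations of same-numbered rats correlated at -0.35, -0.16, -0.15 and -0.35. Halving even-only rows was chosen after seeing the data. Depth limits the rarest members. In simulated counts 43 of 98 changes of 2-fold were recovered, over rows of all levels and with many rows changed. That rate does not measure recovery for the members.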
